A study of Mus musculus with 8 samples.

Results

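Matrix metalloproteinases (MMPs) were followed here through the genes Mmp2, Mmp3, Mmp8, Mmp9, Mmp11, Mmp12, Mmp13, Mmp14, Mmp19 and Mmp23, taken by gene name as 10 of the 47643 named genes in the deposited expression table. All 10 had an entry, and 9 of them were among the 15327 genes with enough counts to be tested, Mmp9 being the exception. MMPs are zinc-dependent proteases that cut collagens, proteoglycans and other matrix proteins. Most are secreted as inactive proenzymes and some sit in the plasma membrane, they become active once the propeptide is removed, and the tissue inhibitors of metalloproteinases (TIMPs) block them. In bone, Mmp13 and Mmp14 are best known for the turnover of collagen by osteoblasts, hypertrophic chondrocytes and stromal cells, and Mmp9 for its expression in osteoclasts.

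The study deleted Mettl3, the catalytic subunit of the enzyme that writes N6-methyladenosine (m6A) on mRNA, and asked what this changed in bone marrow mesenchymal stem cells (MSCs) of C57BL/6 mice. RNA-seq covered 2 libraries from Prx1-Cre;Mettl3fl/fl mice (cKO) and 2 from controls (WT), which the labels call wild type and the study describes as Mettl3fl/fl littermates. A separate m6A immunoprecipitation of wild-type MSCs (MeRIP-Seq, 2 immunoprecipitates and 2 inputs) yielded a single list of peaks. All cells had spent 2 days in osteogenic medium with dexamethasone at 100 nM, β-glycerophosphate at 5 mM and ascorbic acid at 50 μg/ml. The cells were flushed from tibiae and femurs and no sort is described. Prx1-Cre is active in limb mesenchyme and its descendants, so other cells of such a culture keep Mettl3. The ages of the mice used for sequencing were not given in the sources used here.

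The RNA-seq libraries held between 23978099 and 34106693 counts. Mettl3 itself had 17.6 and 16.9 counts per 1000000 (CPM) in WT and 17.5 and 16.3 CPM in cKO, a log2 fold change of -0.03 (SE 0.0929, adjusted p = 0.824). Counts of a whole gene include exons outside a deletion, so this value does not check the labels, and the direction of every difference below rests on them. Throughout, p-values are from edgeR's quasi-likelihood test, two-sided, with Benjamini-Hochberg adjustment over all genes tested, a gene was called at an adjusted p under 0.05, and fold changes are cKO over WT. The WT libraries differed from each other far more than the cKO libraries did, with a biological coefficient of variation of 12.3% against 1.90%. No source says that the libraries came from separate mice or cultures, so the p-values measure the spread between these libraries, which may be technical. Macrophage genes were abundant in every library, with 8 markers summing to 16600 and 22100 TPM (transcripts per 1000000, a per-length level) in WT and 24000 and 24100 TPM in cKO. Most of each sum was Lyz2, with 14418 and 20117 TPM in WT and 21566 and 21709 TPM in cKO, and Lyz2 was not called (adjusted p = 0.342). The 8 stromal and osteoblast markers summed to 1360 and 1230 TPM in WT and 875 and 896 TPM in cKO. In such mixed cultures, fewer cells of a type and less RNA per cell cannot be told apart.

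Mmp13 (ENSMUSG00000050578, collagenase-3, which cuts fibrillar collagens) and Mmp3 (ENSMUSG00000043613, stromelysin-1, which cuts proteoglycans and activates other MMPs) fell most of the members, and their promoters are shown first because both genes lie in the same cluster on chromosome 9. Each line gives the 250 bases before the RefSeq start site on the plus strand of GRCm38.p6, with matches to TGAGTCA or its reverse complement TGACTCA (the AP-1 motif, bound by Fos and Jun proteins) and to TGTGGT or its reverse complement ACCACA (the core bound by Runx factors) in capitals.
Mmp13, chr9:7272264-7272513: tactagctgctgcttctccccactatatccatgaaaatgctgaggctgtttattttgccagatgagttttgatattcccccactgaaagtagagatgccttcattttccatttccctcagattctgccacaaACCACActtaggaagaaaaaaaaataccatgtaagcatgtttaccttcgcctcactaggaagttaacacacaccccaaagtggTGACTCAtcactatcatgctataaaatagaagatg
Mmp3, chr9:7445572-7445821: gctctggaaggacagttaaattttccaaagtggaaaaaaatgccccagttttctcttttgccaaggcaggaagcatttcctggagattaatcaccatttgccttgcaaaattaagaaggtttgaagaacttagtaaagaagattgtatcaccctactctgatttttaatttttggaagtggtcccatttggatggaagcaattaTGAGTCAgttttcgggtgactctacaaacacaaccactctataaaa
The Mmp13 promoter held the AP-1 letters from position -35 and the RUNX letters from -118, and the Mmp3 promoter held the AP-1 letters from -46. The motifs did not overlap each other. Of the 32851 RefSeq promoter windows of this length, 4.46% held the AP-1 letters, 14% the RUNX letters and 0.712% both. RefSeq windows were also at hand for Mmp8, Mmp11, Mmp12, Mmp14 and Mmp23. Among these, the AP-1 letters occurred from -44 in the window of a second Mmp12 start site, and the RUNX letters from -114 for Mmp14 and from -177 for the first of the Mmp23 start sites. Mmp2, Mmp9 and Mmp19 had no entry.

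The m6A peaks are the other sequence context, since m6A is written mostly within GGAC and related letters. Peaks had their summit in 3 members, Mmp2, Mmp14 and Mmp19, with 2 peaks on Mmp14 and 1 on each of the others. Over all 14118 tested genes placed on mm9, 40.3% had a peak. Each line shows 30 bases of mm9, plus strand, around the GGAC nearest to a summit, with only that GGAC in capitals. The Mmp2 line holds a further GGAC in lower case.
Mmp2 5′UTR, chr8:95351369-95351398: gtattgggacgtgGGACcccgttatgagct
Mmp14 5′UTR, chr14:55050439-55050468: tgggagaagggagGGACcaaaggagagcag
Mmp14 last exon, chr14:55059256-55059285: agtcagctctgcgGGACtggatgggctgcc
Mmp19 last exon, chr10:128236008-128236037: actcatcaaccggGGACgttactccttcaa
All 4 peaks held at least 1 GGAC, as did 86.9% of the 9397 peaks with a summit in any gene.

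Of the 9 members tested, Mmp13, Mmp3, Mmp8 and Mmp23 were lower in cKO and Mmp2 and Mmp11 were higher, while Mmp14, Mmp12 and Mmp19 did not pass the threshold. That is 6 members called, in a comparison that called 30.5% of all genes tested, 16.8% lower and 13.7% higher. The libraries of the groups did not overlap for 7 of the 9, all but Mmp12 and Mmp19, as was the case for 68.9% of all genes tested. The median log2 fold change of the 9 was -0.18, and that of all genes tested was -0.00378.

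**Figure D1:**
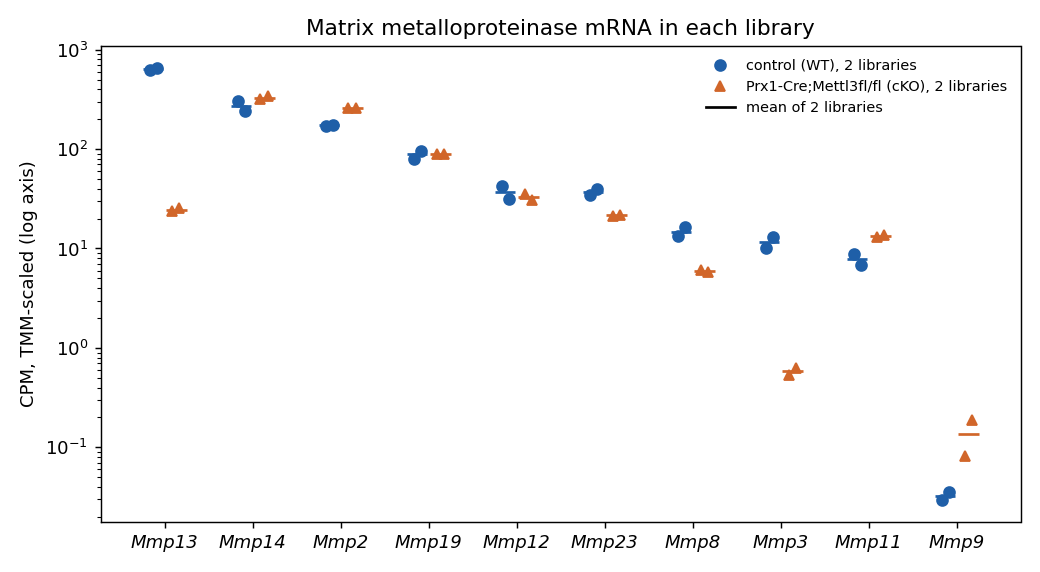
CPM of each member in each library, scaled by TMM, on a log axis; circles are the 2 WT libraries, triangles the 2 cKO libraries and bars the group means. The WT and cKO libraries lie farthest apart for Mmp13 (620.2 and 659.5 against 23.7 and 25.4) and Mmp3, and they overlap for Mmp12 and Mmp19; Mmp9 has at most 6 counts in a library.

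Mmp13 had 20967 and 18643 counts in the WT libraries and 574 and 809 in the cKO libraries, or 620.2 and 659.5 against 23.7 and 25.4 CPM. Both cKO libraries were far below both WT libraries. The fall was 26.1-fold, with a log2 fold change of -4.70 (SE 0.0779, 95% interval -4.89 to -4.52, adjusted p = 1.6e-06), and ranked 86 among the falls of all genes tested. By the deposited TPM, a per-length level, Mmp13 ranked 414 of 15327 genes in WT and 7188 in cKO.

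Mmp3 had 339 and 372 counts in WT and 13 and 20 in cKO, or 10.0 and 13.2 against 0.537 and 0.628 CPM. The groups did not overlap, and the few cKO counts make this the less precise of the large falls. Its log2 fold change was -4.29 (SE 0.239, 95% interval -4.87 to -3.71, adjusted p = 8.9e-05), ranking 120 among falls. On the scale of log2(TPM + 1) the fall was -2.80, since the pseudocount is large beside the cKO level.

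Mmp8 (ENSMUSG00000005800, collagenase-2, stored in the granules of neutrophils) had 448 and 462 counts in WT and 148 and 183 in cKO, or 13.3 and 16.3 against 6.11 and 5.74 CPM. All cKO values were below the WT values, with a log2 fold change of -1.32 (SE 0.143, adjusted p = 0.00124). The 9 neutrophil markers summed to 3.14 and 4.28 CPM in WT and 1.11 and 0.910 CPM in cKO, and S100a9, Ngp, Ltf, Mpo and Retnlg were listed at 0 in every library. The table gives S100a9, Ltf, Mpo and Retnlg spans shorter than their stated transcript lengths, so their zeros need not be measured absence. Of the 2 neutrophil markers tested, S100a8, the marker with the most counts, fell with Mmp8 (log2 fold change -2.43, adjusted p = 0.00475). The other did not pass the threshold. The part of neutrophils in the result was not tested.

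Mmp23 (ENSMUSG00000029061, a membrane-tethered member with an unusual domain order) had 1158 and 1121 counts in WT and 520 and 692 in cKO, or 34.3 and 39.7 against 21.5 and 21.7 CPM. Its groups stood apart, with a log2 fold change of -0.77 (SE 0.0964, adjusted p = 0.00219).

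Mmp2 (ENSMUSG00000031740, gelatinase A, which cuts denatured collagen and basement membrane) went the other way. It had 5820 and 4903 counts in WT and 6248 and 8271 in cKO, or 172.2 and 173.5 against 257.9 and 259.5 CPM. The replicates of each group were within about a percent of each other, and the rise was 1.5-fold, with a log2 fold change of 0.58 (SE 0.0558, adjusted p = 0.000777).

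Mmp11 (ENSMUSG00000000901, stromelysin-3, which is activated inside the cell by furin) had 301 and 192 counts in WT and 313 and 439 in cKO, or 8.90 and 6.79 against 12.9 and 13.8 CPM. The groups did not overlap, with a log2 fold change of 0.76 (SE 0.151, adjusted p = 0.0122). Without cKO replicate 2 the adjusted p was 0.0675.

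Mmp14 (ENSMUSG00000000957, MT1-MMP, a membrane-anchored collagenase that activates pro-Mmp2 at the cell surface) had 10207 and 6812 counts in WT and 7742 and 10826 in cKO, or 301.9 and 241.0 against 319.5 and 339.7 CPM. Both cKO libraries were above both WT libraries, which differed from each other by more than WT replicate 1 did from either cKO library. The log2 fold change was 0.28 (SE 0.109, 95% interval 0.016 to 0.54, adjusted p = 0.102). It passed the threshold with no filter on low counts (adjusted p = 0.000917) and without either WT library, where the fold change was 0.46 (without WT replicate 1) or 0.13 (without WT replicate 2) and the WT spread no longer entered the fit.

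Mmp12 (ENSMUSG00000049723, macrophage elastase) had 42.7 and 31.7 CPM in WT and 35.1 and 30.6 CPM in cKO. The groups overlapped, with a log2 fold change of -0.18 (95% interval -0.55 to 0.18, adjusted p = 0.398). Of the 8 macrophage markers, Ptprc rose (log2 fold change 0.42, adjusted p = 0.00333, passing in 8 of 11 alternatives) and the others did not pass the threshold. Mmp12 stood at 0.05 without WT replicate 1 and at -0.39 without WT replicate 2 (adjusted p = 4.08e-09), so its sign rested on which WT library was kept.

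Mmp19 (ENSMUSG00000025355, a secreted member that cuts basement membrane proteins) had 80.0 and 96.5 CPM in WT and 88.8 and 89.2 CPM in cKO. The cKO values lay between the WT values, and the log2 fold change was 0.01 (95% interval -0.21 to 0.24, adjusted p = 0.932). It was -0.11 without WT replicate 1 (adjusted p = 0.0207) and 0.15 without WT replicate 2 (adjusted p = 0.00276). Tmem198b, with 541 counts in WT replicate 1, overlaps it on the opposite strand, and the strand setting of the counting is not given in the sources used here.

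Mmp9 (ENSMUSG00000017737, gelatinase B, abundant in osteoclasts and neutrophils) had 1 and 1 counts in WT and 2 and 6 in cKO and was not tested. The pooled rate was 4.52 times higher in cKO, with an exact 95% interval for counting error of 0.901 to 43.7 that includes no difference. A count of 3 corresponds to between 0.0881 and 0.125 CPM in these libraries, so Mmp9 was under that level in all but cKO replicate 2. Its TPM was 0.05 and 0.22 in WT and 0.04 and 0.10 in cKO, an order that differs from that of its counts. The 7 osteoclast markers summed to 126 and 110 CPM in WT and 77.6 and 76.5 CPM in cKO. Of the 3 tested, Acp5 (log2 fold change -0.97, adjusted p = 0.00628) and Ctsk (-0.67) were lower and the other did not pass the threshold, while Calcr was listed at 0 and Dcstamp had 1 count in WT replicate 1 and 0 elsewhere. The part of these cells in the counts of Mmp9 was not tested.

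**Figure D2:**
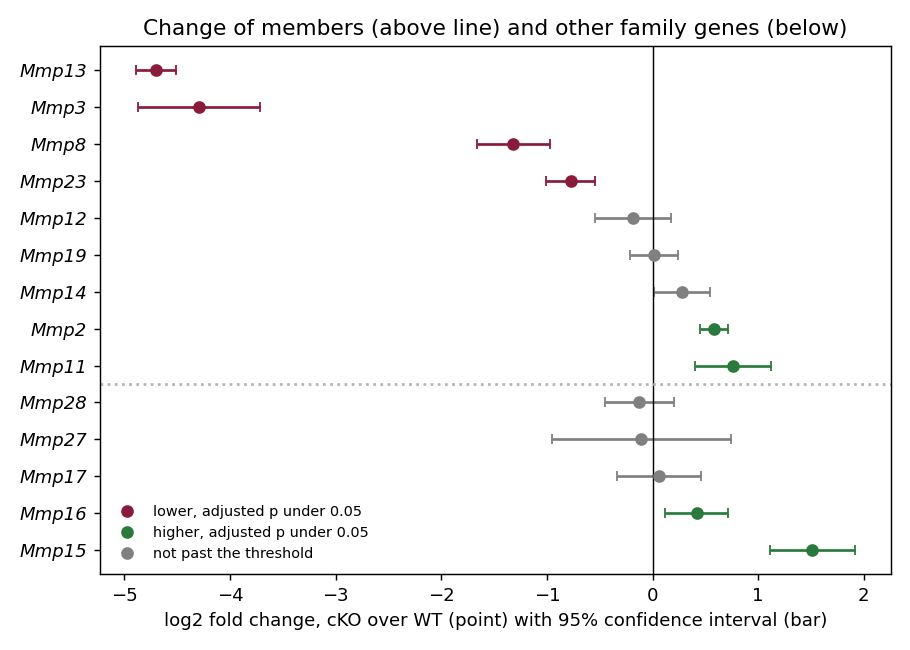
Log2 fold change of the 9 members tested (above the dotted line) and of the 5 other family genes tested (below), with 95% confidence intervals from the fit. Mmp13 and Mmp3 lie near -4.70 and -4.29, well to the left of Mmp8 at -1.32, and the intervals of Mmp12 and Mmp19 include 0.

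By TPM, the make-up of MMP mRNA differed between the genotypes. In WT the order of mean TPM was Mmp13 (341), Mmp14 (152), Mmp2 (80.1), Mmp23 (55.9), Mmp12 (38.6), Mmp19 (36.0), Mmp3 (9.71), Mmp8 (8.69), Mmp11 (5.63) and Mmp9 (0.135). The ranges of neighbours overlapped for Mmp12 and Mmp19 and for Mmp3 and Mmp8, so the order within those pairs is not fixed by the data. In cKO it was Mmp14 (197.6), Mmp2 (128.5), Mmp19 (39.0), Mmp12 (36.6), Mmp23 (32.9), Mmp13 (14.03), Mmp11 (11.6), Mmp8 (3.73), Mmp3 (0.525) and Mmp9 (0.0700). No neighbours overlapped there, though the lower Mmp19 value, 38.8, was close to the higher Mmp12 value, 38.5. The deposited length of Mmp12, 7237 bases, does not match the scale of its TPM. The same holds, to a lesser degree, for Mmp23 (2340 bases) and Mmp14 (4299 bases). On CPM per kilobase of the deposited length, Mmp12 ranked 8 in WT and 7 in cKO in place of 5 and 4, with 1.22% and 2.08% of the summed level in place of 5.28% and 7.88%, and Mmp23 held 3.74% in WT in place of 7.68%.

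Mmp13 held 45.2% and 48.6% of the summed TPM of the 10 genes in the WT libraries and 2.96% and 3.08% in the cKO libraries. Mmp14 held 23.1% and 18.6% in WT and 41.9% and 43.2% in cKO, and Mmp2 held 10.9% and 11.1% in WT and 28.0% and 27.4% in cKO. By TPM, a secreted collagenase thus led in WT, and the membrane-anchored Mmp14 led in cKO. The summed TPM was 741 and 716 in WT and 457 and 472 in cKO, and without Mmp13 it was 406 and 368 against 444 and 457. From CPM per kilobase of the deposited gene length, in place of TPM, Mmp13 held 56.7% of the sum in WT and 4.19% in cKO, and Mmp2, not Mmp14, ranked first in cKO.

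**Figure D3:**
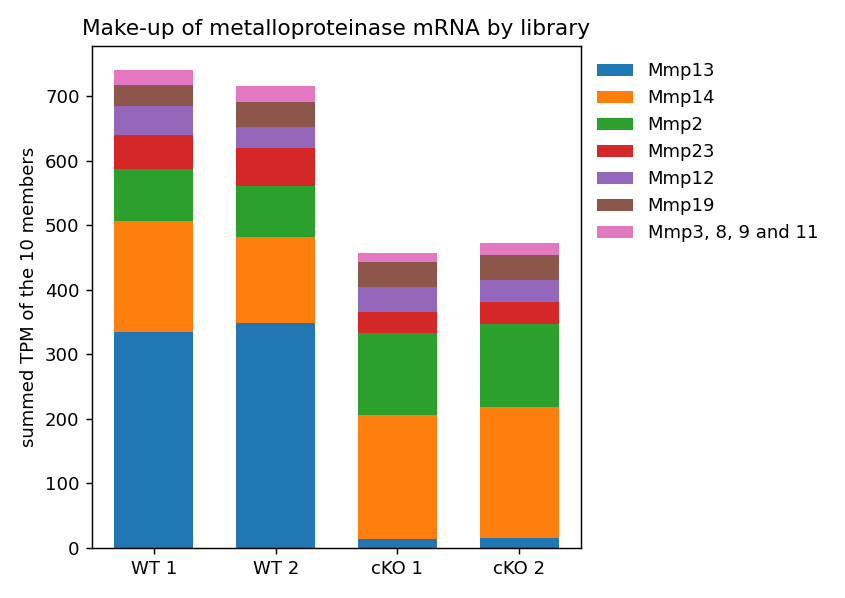
Stacked bars of the deposited TPM of the 10 members in each of the 4 libraries, with Mmp3, Mmp8, Mmp9 and Mmp11 drawn as 1 block. The Mmp13 block fills 45.2% and 48.6% of the WT bars and 2.96% and 3.08% of the cKO bars, and the bars reach 741, 716, 457 and 472 TPM.

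Mmp13, Mmp12, Mmp3 and Mmp8 lie in this order, all on the plus strand, in the cluster of MMP genes on chromosome 9, from base 7272514 of GRCm38 at the start of Mmp13 to base 7699585 at the end of Mmp7. Neighbours in the cluster did not move alike. Mmp12, between Mmp13 and Mmp3, did not pass the threshold, and neither did Mmp27, next to Mmp8, which had 261 and 98 counts in WT and 119 and 177 in cKO (log2 fold change -0.11, SE 0.350, adjusted p = 0.849). Mmp1b, Mmp20 and Mmp7 were listed at 0 counts in every library, and the table gives each a span shorter than its stated transcript length. Mmp1a and Mmp10 had at most 1 and 4 counts in a library.

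Outside the cluster, the other family genes tested were Mmp15, Mmp16, Mmp17 and Mmp28. Mmp15 (MT2-MMP) had 4.73 and 3.54 CPM in WT and 11.4 and 12.3 CPM in cKO, a rise with a log2 fold change of 1.51 (SE 0.166, adjusted p = 0.00131). Mmp16 (MT3-MMP) had 7.63 and 7.08 CPM in WT and 10.3 and 9.41 CPM in cKO (log2 fold change 0.42, SE 0.123, adjusted p = 0.0451), a call that held in 7 of 11 alternative settings of the fit, with adjusted p-values of up to 0.348. Mmp17 and Mmp28 did not pass the threshold, at 0.06 and -0.12. Of the 13 family genes outside the 10, 5 were thus tested, with 2 higher and 0 lower, where 13.7% of all genes tested were higher and 16.8% lower.

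Over the 4 libraries, the genes with a pattern most like that of Mmp13 were Col11a2, Dcn, Lmx1b, Sox6 and Lcn2. The measure was the root mean square difference of log2 CPM centred on each gene's own mean, among genes tested with counts in every library, and it ran from 0.0714 for Col11a2 to 0.142 for Lcn2. Their log2 fold changes lay between -4.42 (Lcn2) and -4.85 (Dcn), and with 2 libraries a group the likeness is one of fold change more than of pattern. Col11a2 is a cartilage collagen gene and Sox6 a transcription factor of chondrocytes. The 8 chondrocyte markers summed to 4260 and 4360 CPM in WT and 260 and 263 CPM in cKO. Of these, 7 were lower, and the median log2 fold change of the 8 was -5.37. Of the 8 stromal and osteoblast markers, 5 were lower and 2 higher (Pdgfrb and Prrx1). Among all genes tested, 16.8% were lower and 13.7% higher. The part of either cell type in the fall of Mmp13 was not tested.

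The inhibitors of MMPs were measured alongside. Of 7 genes tested, Timp1, Timp4 and A2m were lower and Timp3 was higher, with a median log2 fold change of 0.00. Among all genes tested, 16.8% were lower and 13.7% higher. Timp1, an inhibitor of most secreted MMPs, had 176.0 and 196.1 CPM in WT and 40.9 and 39.0 CPM in cKO, a log2 fold change of -2.22 (SE 0.0777, adjusted p = 1.55e-05). Timp2, which also takes part in the activation of pro-Mmp2 by Mmp14, had 1074 and 1125 CPM in WT and 1098 and 1101 CPM in cKO, with a log2 fold change of 0.00 (95% interval -0.14 to 0.14). Timp3, which is bound to the matrix, had 167.9 and 257.0 CPM in WT and 323.4 and 323.7 CPM in cKO (log2 fold change 0.61, adjusted p = 0.0463). Its call held in 7 of 11 alternatives, with adjusted p-values of up to 0.128 (DESeq2), and its log2 fold change was 0.34 without WT replicate 1 and 0.94 without WT replicate 2. Timp4 and the broad protease trap A2m fell by 1.19 and 3.36 on the log2 scale, A2m from 53 and 72 counts to 4 and 7, and Reck (0.26, adjusted p = 0.0888) and Tfpi2 (0.23) did not pass the threshold. The summed TPM of the 10 MMPs over that of Timp1 to Timp4 was 0.779 and 0.707 in WT and 0.610 and 0.645 in cKO. These ratios did not overlap, but an exact two-sided permutation test of 2 against 2 libraries cannot go below p = 0.333. Without Mmp13, the summed TPM of the members was 406 and 368 in WT and 444 and 457 in cKO. Timp1 to Timp4 summed to 951 and 1010 TPM in WT and 749 and 732 TPM in cKO. Without Mmp13 the ratio was thus higher in cKO, so its fall over the 10 genes rested on Mmp13.

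Plasmin is a classical activator of pro-MMPs, and its own activators moved in opposite directions. Of 7 genes tested, 3 were lower and 1 higher, where 30.5% of all genes tested were called. Plau, the urokinase activator, had 62.4 and 56.4 CPM in WT and 17.9 and 19.2 CPM in cKO (log2 fold change -1.68, adjusted p = 6.7e-05). Its receptor Plaur had 90.9 and 89.4 CPM in WT and 21.6 and 19.4 CPM in cKO (-2.14, adjusted p = 1.73e-05). Serpine2, a protease inhibitor, fell by 1.18 on the log2 scale. Plat, the tissue activator, rose from 5.74 and 8.81 CPM to 20.1 and 20.05 CPM (1.47, adjusted p = 0.00253). Plg, which encodes plasminogen itself, was listed at 0 in every library, with a span shorter than its stated transcript length, so its zeros need not be measured absence.

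Furin and its relatives cleave the propeptides of Mmp11, Mmp14 and other members with a furin site. Furin (log2 fold change -0.17, adjusted p = 0.208) and Pcsk7 (-0.07) did not pass the threshold, Pcsk5 was lower (-1.77, adjusted p = 0.000345) and Pcsk6 higher (0.62, adjusted p = 0.0121), with 1 lower and 1 higher of the 4 tested. The call of Pcsk6 held in 6 of 11 alternatives, with adjusted p-values of up to 0.0989. Of 6 genes that dock, induce or clear MMPs, 3 were lower and 2 higher, with a median of -0.17. For both lists, the shares over all genes tested were 16.8% lower and 13.7% higher. Lcn2, whose product binds Mmp9, had 40.2 and 39.4 CPM in WT and 1.77 and 1.91 CPM in cKO (log2 fold change -4.42, adjusted p = 4.08e-06). Bsg, an inducer of MMPs, and Cd44, a docking receptor, fell by 0.62 and 0.32 on the log2 scale. Lrp1, an endocytic receptor that clears Mmp2, Mmp9 and Mmp13, rose by 0.40 and the integrin subunit Itgb3 by 0.96, while Itgav stood at -0.02. Of these calls, those of Bsg and Lcn2 held in all 11 alternatives, and those of Cd44 and Lrp1 in 6 and that of Itgb3 in 8. On log2(TPM + 1) Cd44 stood at -0.15 (adjusted p = 0.397) and Lrp1 at 0.07 (adjusted p = 0.476), in fits with limma. Without WT replicate 1 or WT replicate 2, the log2 fold change was -0.18 or -0.45 for Cd44, 0.57 or 0.26 for Lrp1 and 1.33 or 0.69 for Itgb3.

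All 5 genes of the group of collagen turnover partners were called, 4 lower and 1 higher, with a median of -0.67, where 30.5% of all genes tested were called. Fap, a collagen-cleaving membrane protease, had 16.8 and 16.6 CPM in WT and 5.94 and 5.58 CPM in cKO (log2 fold change -1.54, adjusted p = 0.000215). Ctsk, the collagenase of osteoclasts, Mrc2, an uptake receptor for collagen fragments, and Ddr1, a collagen receptor, fell by 0.67, 0.69 and 0.29 on the log2 scale. Ddr2, a receptor for fibrillar collagen that is known to induce Mmp13, rose by 0.58 (adjusted p = 0.00486). The call of Ddr1 held in 6 of 11 alternatives, with a log2 fold change of -0.19 without WT replicate 1, -0.39 without WT replicate 2 and -0.08 by limma on log2(TPM + 1) (adjusted p = 0.597), and the other calls of this group held in all 11.

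Among 11 transcription factors known to act at MMP promoters, 7 were lower and 3 higher, with a median of -0.48. The AP-1 family members Fosb (-3.22), Fosl1 (-2.50), Junb (-2.29), Fos (-1.93) and Fosl2 (-1.42) were lower, with adjusted p-values from 1.59e-05 for Junb to 7.49e-05 for Fos, and Jun and Jund were higher, by 0.45 and 0.34. Junb had 373.1 and 426.8 CPM in WT and 81.8 and 81.5 CPM in cKO, and Jun had 220.6 and 237.1 CPM in WT and 305.0 and 322.2 CPM in cKO. Runx2 and Ets2 fell by 0.48 and 0.42 on the log2 scale, Ets1 rose by 0.28 and Cebpb (0.29, adjusted p = 0.277) did not pass the threshold. The 5 lower AP-1 genes passed in all 11 alternatives, Jun in 10, Jund in 8, Runx2 in 6 and Ets1 and Ets2 in 5 each. By limma on log2(TPM + 1), Runx2 stood at -0.07 (adjusted p = 0.583), and Ets2 stood at -0.60 without WT replicate 1 and -0.22 without WT replicate 2. These values stand beside the promoter letters shown above, and binding at those letters was not measured. Promoter windows were also at hand for some genes outside the MMP family. Plaur, lower in cKO, held the AP-1 letters from -69. Lcn2, Timp1 and Timp4, also lower, held neither motif, and nor did Timp2 and Timp3. Whether the letters go with the changes was not tested. Over these lists, without the 10 members, 32 of the 45 genes tested (of 54) were called, 21 lower and 11 higher, where 30.5% of all genes tested were called. The lists were chosen with earlier results of these data known, so this count is not a test of the genes as a group.

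**Figure D4:**
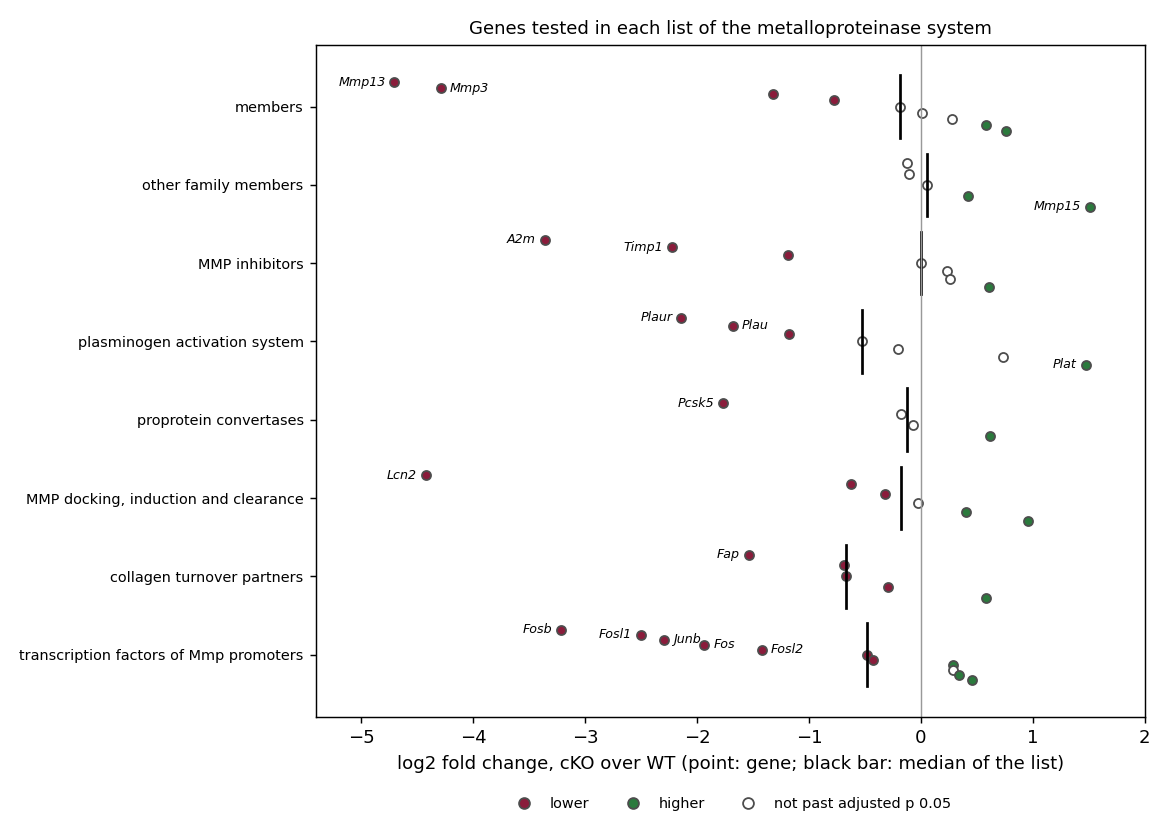
Log2 fold change of each gene tested in 8 lists of MMP-related genes, 1 point a gene, filled where the gene passed an adjusted p of 0.05, with a black bar at each list's median. The medians run from -0.67 for collagen turnover partners to 0.06 for the other family members, against -0.00378 for all genes tested.

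The peak list held 10160 peaks in all. On mm9, 92.5% of summits lay in an annotated gene, against 52.2% with the positions of the expression table, which are those of GRCm38, so mm9 was used. Of the 500 tested genes nearest to Mmp2, Mmp14 and Mmp19 in WT level, 53.6%, 51.4% and 53.4% had a peak.

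Mmp14 carried the strongest and the broadest of the members' peaks. The peak at chr14:55050380-55050600 had its summit in the 5′UTR, at -220 relative to the start codon, with a fold enrichment of 7.16 over local background, above 90.1% of all peaks, and a −log10 q (read by column position, its header being damaged) of 38.7. The peak at chr14:55059115-55059947 had its summit in the coding sequence of exon 10 of 10, at -221 relative to the stop codon. Its fold enrichment was 2.35, above 8.28% of all peaks, but its pileup of 206 ranked 65, and it held 5 GGAC, 3 of them GGACT. A further peak at chr14:55060139-55060468, with a fold enrichment of 2.17, had its summit 245 bases past the annotated end of Mmp14 and in no gene.

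The Mmp19 peak at chr10:128235742-128236133 also lay in the coding sequence of the last exon, 9 of 9, with its summit at -143 relative to the stop codon, a fold enrichment of 3.04 and 2 GGAC. The Mmp2 peak at chr8:95351227-95351426 lay in the 5′UTR at -108 relative to the start codon. With a fold enrichment of 1.54, above 0.157% of all peaks, and a −log10 q of 2.58, it was among the weakest in the list. The medians of all peaks were a fold enrichment of 4.03 and a −log10 q of 14.2. With a −log10 q of at least 10, 2 members and 3 peaks remained, without Mmp2. In the mm9 annotation, Mmp14 overlaps Gm11067 and Mmp19 overlaps 1110012D08Rik, both on the opposite strand. The places of the summits in those 2 genes were not examined.

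No peak had its summit in Mmp13, the most abundant member in WT, although 50.0% of the 500 tested genes nearest to it in level had one. These levels are those of the WT RNA-seq libraries. Levels in the separate cells of the MeRIP-Seq, Mmp13 included, were not measured here, so a missing peak need not mean missing m6A. The mature Mmp13 transcript of 2675 bases in the mm9 annotation held 9 GGAC, or 3.36 per kilobase, and 69.5% of tested coding genes held more. Mmp2 held 6.91 and Mmp14 5.39 GGAC per kilobase, exceeded by 10.5% and 28.0% of genes, and Mmp19 held 3.81. Mmp3 and Mmp8 held 5.01 and 4.89 per kilobase without a peak, and the median of all tested coding genes was 4.26. Genes with and without a peak had medians of 4.45 and 4.09, and median transcript lengths of 3488 and 2452 bases.

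**Figure D5:**
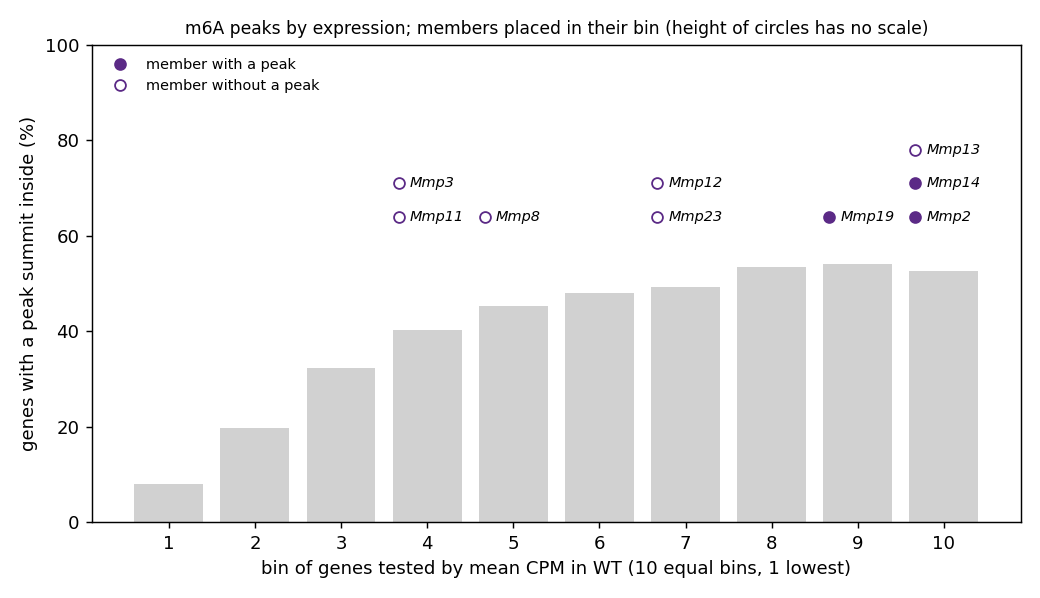
Share of tested genes with an m6A peak summit inside, in 10 bins of equal size by mean WT CPM (bars); circles mark the bin of each member, filled where it has a peak, and their height has no scale. The share runs from 8.0% in the lowest bin to 52.5% in the highest, which holds Mmp13 without a peak and Mmp2 and Mmp14 with one.

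Set beside the expression data, the 4 members lower in cKO carried 0 peaks. Mmp11, which was higher, Mmp12, which did not pass the threshold, and the untested Mmp9 carried none either. Of the 500 tested genes nearest in WT level to Mmp13, Mmp3, Mmp8 and Mmp23, 50.0%, 39.6%, 39.8% and 48.4% had a peak. Those genes were matched on level and not on transcript length, and genes with a peak had the longer transcripts by median. The transcripts of Mmp13, Mmp3, Mmp8 and Mmp23 had 2675, 1798, 2453 and 1434 bases. Those of Mmp2, Mmp14 and Mmp19 had 3038, 2597 and 3410 bases. Of the members with a peak, Mmp2 was higher, and Mmp14 and Mmp19 did not pass the threshold. With 3 members carrying a peak, no comparison of their fold changes was made. The list comes from wild-type cells, and m6A on these transcripts in cKO was not measured.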

How the data were processed

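RNA-seq of WT and cKO MSCs (2 libraries each) and a MeRIP-Seq peak list were analysed. The authors mapped RNA-seq reads with HISAT2 (2.0.4 in the submitters' processing notes, which also name TopHat and MACS2) and used Ballgown for testing. They deposited estimated counts per gene, not normalized, and values headed FPKM that sum to 1000000 in each library, so that they are in effect TPM (FPKM rescaled). The deposited peak list gives pileup signal, fold enrichment as a ratio and, in a column whose header is damaged, a value that its place in MACS2 output makes the −log10 q-value. Whether samples were pooled is not given in the sources used here. Other deposited columns hold positions and lengths, which are not scaled.

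Estimated counts were rounded, and 89 entries without a gene name (0.110% to 0.125% of counts) were left out. Genes were filtered with filterByExpr, scaled by TMM (0.987 to 1.01) and tested with edgeR 4.0.16 without a block. DESeq2 1.42.0, limma 3.58.1 on log2(TPM + 0.1) and log2(TPM + 1), other scaling and filters, a replicate block, leaving out each library and summing the cKO libraries were alternatives. Floors are 3 counts, and floors and the exact interval of Mmp9 cover counting error only, while the intervals of log2 fold changes come from the edgeR fit. A peak belongs to the gene holding its summit on mm9 (GENCODE vM1), by exon region first and then counts. GGAC was searched on the transcript strand, and promoter sequences are from RefSeq (GRCm38.p6). The fit was tested on simulated data drawn with the same spread in both groups, so that test does not cover the unequal spread of the WT and cKO libraries. The 10 members, the gene lists and the rule for named genes (all members, other family genes tested, in each list the genes called and the 2 most abundant, and the 5 genes most like Mmp13) were chosen with earlier results of these data known. A gene that this rule would name is not reported here.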

Additional observations from a re-analysis of the deposited data

How the results depend on the processing

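The number of members called stayed within 5 to 9 when a library was left out and was 6 to 7 under the other settings, and the 4 lower members and Mmp2 passed the threshold in all 11 alternatives. The MMP-related genes called numbered 20 to 39 without a library, against 32, and all genes called 1867 to 8750, against 4677. Summing the cKO libraries to 1 sample left 2012. Leaving out a WT library takes its spread out of the fit, and the lone library is then assumed to vary like the cKO pair. With the replicate number as a block, 6 members, 33 MMP-related genes and 4881 of all genes were called. The numbers are only names here, since over all genes tested the replicate 1 minus 2 differences of WT and cKO correlated at 0.0264. The block is not read as a pairing. DESeq2 called 3862 genes. The limma fits on TPM called 1442 lower and 1779 higher genes with a pseudocount of 0.1, and 1414 and 1775 with 1, against 2577 and 2100 by edgeR, and they moved the median log2 fold change of all genes to 0.10 and 0.08, so that small rises of members on TPM (Mmp14 at 0.39, Mmp19 at 0.12) are to be read against that shift. Leaving out a library moved the log2 fold change of Mmp12 from -0.39 to 0.049, of Mmp19 from -0.11 to 0.15 and of Mettl3 from -0.078 to 0.023, each changing direction: Mmp12, Mmp19 and Mettl3 (0.0013) without WT replicate 1, and Mettl3 without cKO replicate 2. Mmp11 lost its call without cKO replicate 2. The share of Mmp13 in the summed level was 56.7% in WT and 4.19% in cKO on CPM per kilobase, against 46.9% and 3.02% on TPM. The cause of the differences between settings was not tested.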

Other observations

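Peaks on family genes outside the 10 were found on Mmp28, Mmp15 and Mmp24. Mmp28 had 2 peaks in its 3′UTR, the stronger with a fold enrichment of 10.2, above 97.7% of all peaks, at a WT level of 12.2 CPM, and its log2 fold change was -0.12. Mmp28 overlaps 1700020L24Rik on the opposite strand, which had 121 counts in WT replicate 1, while Mmp28 had 460. Mmp15, which rose in cKO, had a 5′UTR peak with a fold enrichment of 7.14, and its pileup was 14. The Mmp24 summit also lies within BC029722 on the opposite strand, which had 1719 counts in WT replicate 1, while Mmp24 had 5. Of the MMP promoters at hand outside the 10, those of Mmp1a, Mmp1b, Mmp10 and 1 of the Mmp7 start sites held the AP-1 letters, and these genes had at most 4 counts in a library.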
